A study of Mus musculus with 8 samples.

Results

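Carboxylesterases were measured by RNA sequencing in whole livers of neonatal CD1 mice, an outbred stock, in 4 pups carrying a germline deletion of Myo5b and in 4 littermates that were heterozygous or wildtype at the locus. Myo5b encodes the motor myosin Vb, which carries recycling endosomes to the apical membrane, and the deletion is present in every tissue of the knockouts. Pups were 3 to 8 days old, and the age, sex and litter of each pup are not given in the labels. Whether these differ between the genotypes cannot be checked, and their effects cannot be separated from that of genotype. The controls pool 2 genotypes. The 10 genes described are Ces1b, Ces1c, Ces1d, Ces1e, Ces1f, Ces1g, Ces2a, Ces2e, Ces2g and Ces3a, of 20 carboxylesterase genes in the annotation and of 48440 genes in the table. They were picked from that family with their counts and their knockout-against-control differences already known, and no numerical cut-off was given. Their differences between genotypes are therefore given as a description, with the standard error (SE) of the fit across all genes and no p-value. The number past the test's threshold is given as a count from which nothing is read.

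Carboxylesterases are serine hydrolases that split ester, amide and thioester bonds. In hepatocytes most of them sit in the lumen of the endoplasmic reticulum, where they hydrolyse ester drugs and pyrethroids and also stored triglyceride, cholesteryl ester and retinyl ester. The mouse family grew by tandem duplication, so that a single human CES1 or CES2 gene corresponds to a row of mouse genes. All 20 lie on chromosome 8 (GRCm38, GENCODE M21), in 2 clusters. The first, at 93020214 to 93535830 on the minus strand, holds the Ces1 genes and Ces5a, and the second, at 104734003 to 105150109 on the plus strand, holds the Ces2 and Ces3 genes and Ces4a.

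The coding sequences show how far the genes have diverged, including at the end that encodes the short carboxy-terminal signal by which most of these enzymes are kept in the endoplasmic reticulum. The last 30 coding bases of 7 of them are shown, with the 12 bases before the stop codon in capitals (GENCODE M21 transcripts, 5′ to 3′).
Ces1b: gaccctactgagcacAGAGAACACAAAtga
Ces1c: gaccctactgaacacACAGAACACAAAtga
Ces1d: ccatcccacagggaaCATGTTGAGCTCtga
Ces1f: caaccccagccatacCACAATGAGCTGtga
Ces1g: tcatcccatagggaaCATGTTGAACTGtga
Ces2g: agatctcaaaacgtgCACAAAGAGCTAtag
Ces3a: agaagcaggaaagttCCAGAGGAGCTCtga
Ces1c encodes the carboxylesterase of rodent plasma. Its 12 bases differed from those of Ces1b at 1 position and from those of Ces1d at 10. Ces1g differed from Ces1d at 2, yet both runs encode the amino acids HVEL. All 10 genes had a different run of 12 bases. Different bases can encode the same amino acids, so this does not mean that the signals differ.

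Over the whole coding sequence, Ces1b and Ces1c were 91.2% identical, Ces1d and Ces1g 81.6%, and the 15 pairs among the 6 Ces1 genes ranged from 73.6% to 91.2%. The 3 Ces2 genes were 81.6% to 83.3% identical to each other and 62.0% to 65.4% identical to the Ces1 genes. Ces3a was 95.3% identical to Ces3b, its neighbour, which is not among the 10. This similarity bears on the counts, because a read that fits several genes may be dropped or assigned to one of them, and neither the read length nor the handling of such reads is given in the sources used here. Of 100-base stretches of each reference transcript, 9.09% of those of Ces3a also occur in another gene's transcripts, mostly Ces3b, 10.7% of those of Ces2a, 1.39% of those of Ces1c and 1.29% of those of Ces1b, and none of those of Ces1d, Ces1e, Ces1f, Ces1g, Ces2e and Ces2g. At 50 bases the shares were 30.9% for Ces3a, 22.2% for Ces2a, 17.0% for Ces1c and 11.6% for Ces1b. The levels of Ces3a and Ces2a are the most uncertain on this account.

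All libraries had similar depth, at 15134291 to 18398039 counts in knockout and 14228268 to 17007771 in control livers. Hepatocyte marker transcripts dominated in every liver (Alb, albumin, was 32560 ± 4519 CPM in knockouts and 68620 ± 8598 in controls; mean ± SD, n = 4, with CPM meaning counts per 1000000 after TMM scaling), while Cdx1 and Cdx2, which define intestine, were 0 in every knockout and at or near 0 in controls. Of the other 3 intestinal markers, 2 rose, with the largest median of any marker list (1.38). Lgals4, a galectin, was 35.9 ± 9.34 against 12.6 ± 2.47 CPM (1.52, SE 0.20, adjusted p = 1.10e-04 in edgeR) and Vil1, villin, 3.81 ± 1.04 against 1.45 ± 0.943 CPM (1.38, SE 0.42, adjusted p = 0.0254). Fabp2, at 47.9 ± 7.69 against 39.8 ± 3.31 CPM, did not pass. Of 12 hepatocyte markers 11 were tested, of which 3 fell and 1 rose, with summed levels of 89320 to 101200 CPM in knockouts and 111600 to 140300 in controls. Myo5b itself was 43.1 to 59.5 CPM in knockout and 94.0 to 172 CPM in control livers, and these gene-level counts do not separate the deleted part. All 14 erythroid markers tested fell, with summed levels of 2039 to 4173 CPM in knockouts and 8200 to 10770 in controls, and 9 of 10 Kupffer cell markers rose, at 1451 to 1725 against 840 to 954 CPM. Of 8 endothelial markers 6 rose and 0 fell, with summed levels of 1191 to 1413 CPM in knockouts and 937 to 1002 in controls. Stellate markers (3 rose and 2 fell of 8) and cholangiocyte markers (none of 6 passed) shifted less uniformly. In whole liver, fewer cells of a type and less RNA per cell cannot be told apart. The part that these shifts play in the carboxylesterase values was not tested, except by a fit with an erythroid covariate. That fit is described below, and its covariate cannot be told apart from genotype.

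All 10 carboxylesterases passed the low-count filter, and all 10 were lower in knockout livers. The log2 fold changes of knockout over control ran from -3.50 (Ces1g) to -0.40 (Ces2e), with a median of -1.17, against 0.01 over the 18274 genes tested. In 9 of 10 the 4 knockout livers all lay below the 4 controls, the exception being Ces2e. Of all genes tested, 12.8% had all knockouts below all controls and 10.8% all above. The edgeR quasi-likelihood test, with Benjamini-Hochberg adjustment over all genes and a threshold of 0.05, had 9 of the 10 lower, all but Ces2e. That number was 10 in DESeq2 and with no low-count filter, and 0 with an erythroid covariate described below. Across all genes tested 20.7% were called, 11.4% lower and 9.27% higher. Since the 10 were chosen with this contrast known, nothing is read from these counts.

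**Figure D1:**
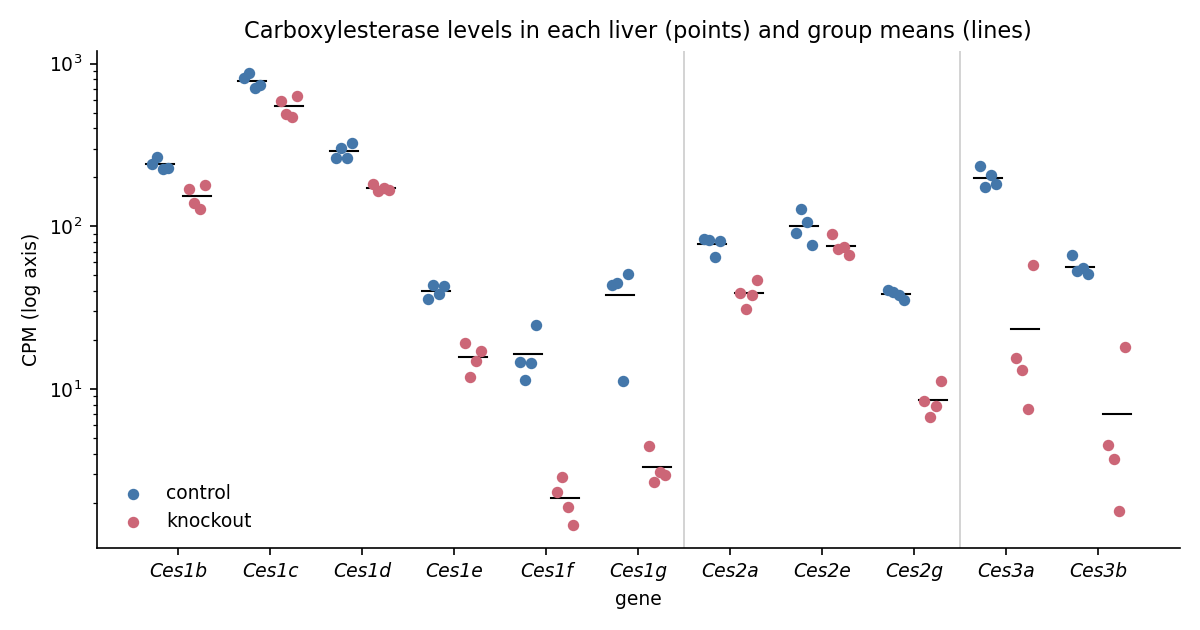
CPM on a log axis for the 10 carboxylesterases and Ces3b, with 1 point for each of 4 control and 4 knockout livers and a line at each group mean; vertical lines part the Ces1, Ces2 and Ces3 genes. Ces1f, Ces1g, Ces2g and Ces3a show the widest gaps, control 281 stands low for Ces1g, and knockout 278 stands high for Ces3a and Ces3b.

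Among the Ces1 genes, the 3 most abundant differed least. Ces1c was 592, 489, 468 and 632 CPM in knockouts 275, 276, 277 and 278 and 818, 871, 709 and 737 CPM in controls 279, 280, 281 and 282, a log2 fold change of -0.52 (SE 0.10). The highest knockout and the lowest control lay 1.12-fold apart. Ces1b, its closest relative, was 170, 139, 128 and 180 CPM in the knockouts and 242, 265, 226 and 229 CPM in the controls (-0.64, SE 0.10). For both genes knockout 278 was the highest and 277 the lowest knockout, and control 280 the highest and 281 the lowest control.

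Ces1d, also known as triacylglycerol hydrolase, which mobilises stored triglyceride for very-low-density lipoprotein, was 181, 165, 171 and 167 CPM in the knockouts. This was the tightest group of any of the 10 genes, with a coefficient of variation of 4.00%. The controls had 264, 302, 262 and 325 CPM, and the log2 fold change was -0.75 (SE 0.09). Ces1e encodes egasyn, which holds beta-glucuronidase in the endoplasmic reticulum. It was 19.3, 11.9, 14.9 and 17.2 CPM against 35.5, 43.7, 38.2 and 42.8 CPM in controls (-1.34, SE 0.14), 39.5% of the control mean. Gusb, which encodes beta-glucuronidase, was 45.9 ± 6.33 against 35.3 ± 6.05 CPM (SD, n = 4), with overlapping groups (0.38, SE 0.13, adjusted p = 0.0524 in edgeR). It passed the threshold in 6 alternative fits and without knockout 278 (0.46) or control 280 (0.45), and turned to -0.28 with erythroid expression as a covariate.

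Among the Ces1 genes, Ces1f and Ces1g differed most. Ces1f, a second triglyceride hydrolase, was 2.32, 2.88, 1.90 and 1.46 CPM in knockouts and 14.7, 11.4, 14.5 and 24.9 CPM in controls (-2.94, SE 0.27). The knockout mean was 13.1% of the control mean, and the lowest control was 3.96-fold above the highest knockout. Knockout 278 was here the lowest of its group, whereas it was the highest for Ces1b and Ces1c. Ces1g, which in mice affects hepatic triglyceride and lipoprotein levels, was 4.47, 2.68, 3.11 and 2.97 CPM in knockouts and 43.6, 45.1, 11.2 and 50.6 CPM in controls (-3.50, SE 0.52). Control 281 stood far below the other controls, yet lay 2.51-fold above the highest knockout. Without it the log2 fold change was -3.81. Of the genes tested, 16 had a lower log2 fold change than Ces1g, and 32 a lower one than Ces1f. Both genes were chosen with this contrast known, so nothing is read from these ranks.

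The Ces2 genes, relatives of the enzyme that activates drugs such as irinotecan in humans, spanned a similar order of differences. Ces2g was 8.41, 6.77, 7.85 and 11.2 CPM in knockouts against 40.5, 39.2, 37.9 and 35.1 CPM in controls, a log2 fold change of -2.16 (SE 0.15), 22.4% of the control mean. Its controls were the most even of the 10 genes (coefficient of variation 5.98%). Ces2a was 38.9, 31.1, 38.0 and 47.1 CPM against 83.8, 82.3, 64.5 and 81.5 CPM (-1.01, SE 0.12), with control 281 again the lowest. Ces2e was 89.2, 72.9, 75.1 and 66.9 CPM against 91.4, 128, 106 and 77.1 CPM (-0.40, SE 0.14). Its groups overlapped, since control 282 lay below knockout 275. Its log2 fold change was -0.51 without control 282 and -0.27 without control 280.

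Ces3a split the knockout group. Knockouts 275, 276 and 277 had 15.5, 13.0 and 7.58 CPM, and knockout 278 had 57.5 CPM, while controls had 235, 174, 207 and 182 CPM. The log2 fold change was -3.10 with the widest SE of the 10 (0.67), and the knockout coefficient of variation was 98.1% against 13.7% in controls. Without knockout 278 it was -4.06. With knockout 275 or 276 left out it was -2.94 or -2.90, and with each liver left out in turn it ran from -4.06 to -2.80. Knockout 278 also had the highest erythroid marker mean of the knockouts, at 6.48 log2 CPM against 5.39 to 5.79 in the others and 7.46 to 7.87 in controls. With that mean as a covariate Ces3a was 0.19 (SE 0.92). In that fit Ces1d (-0.83, SE 0.26), Ces1e (-1.41, SE 0.43), Ces1f (-2.78, SE 0.95) and Ces1g (-3.44, SE 1.88) lay within their SE of the values without it, Ces2g was -1.53 (SE 0.41), Ces2a -0.50 (SE 0.33), Ces1b -0.32 (SE 0.29), Ces1c -0.21 (SE 0.29) and Ces2e -1.24 (SE 0.33). The covariate correlated with genotype at -0.944 across the 8 libraries, so its effect and that of genotype cannot be told apart.

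**Figure D2:**
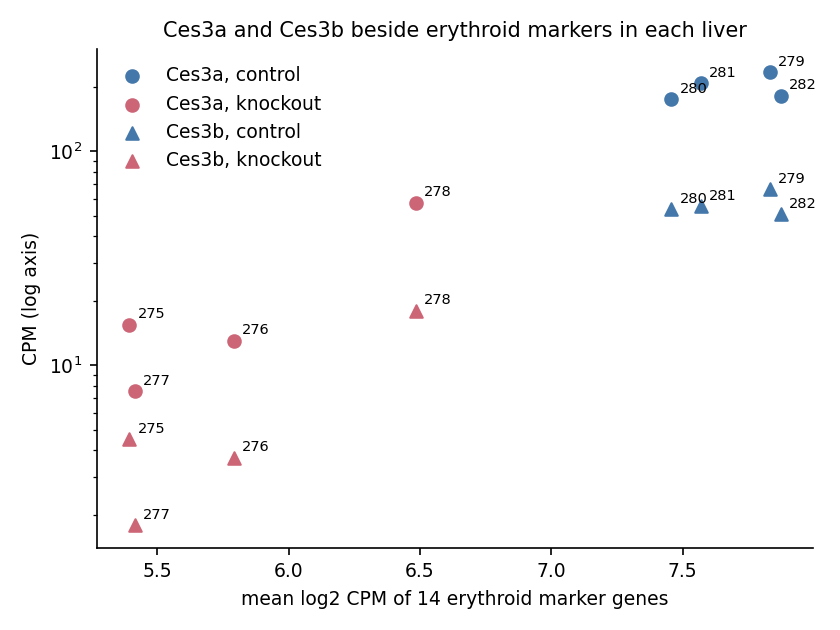
CPM on a log axis of Ces3a (circles) and Ces3b (triangles) in each liver against the mean log2 CPM of 14 erythroid marker genes, with animal numbers. Knockout 278 lies between the other 3 knockouts and the controls on both axes (57.5 CPM of Ces3a at 6.48 log2 CPM).

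Grouped by subfamily, the summed level of the 6 Ces1 genes was 787 to 1001 CPM in knockouts and 1260 to 1538 CPM in controls, a mean of 63.4% of control. The 3 Ces2 genes summed to 111 to 137 against 194 to 249 CPM, 56.9% of control. Ces3a, the single Ces3 gene among the 10, stood at 11.7% of control. None of the 3 sums overlapped between genotypes. The spread within a subfamily was as wide as that between subfamilies, since Ces1 held both the gene with the lowest log2 fold change and one of the 2 nearest 0. The summed log2 ratio of Ces1 (-0.66) mostly reflects Ces1c, Ces1b and Ces1d, and Ces1f and Ces1g add little to it.

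**Figure D3:**
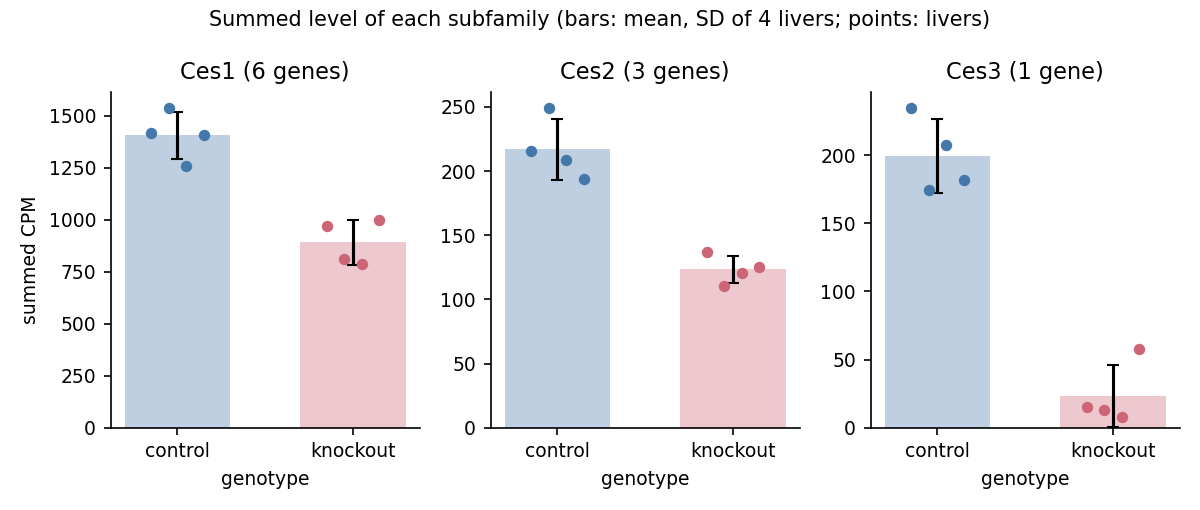
Summed CPM of the Ces1 (6 genes), Ces2 (3 genes) and Ces3 (1 gene) carboxylesterases, with bars at the mean, SD error bars (n = 4) and points for livers. Knockouts lie below controls in each panel, at 63.4%, 56.9% and 11.7% of the control mean.

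Per kilobase of exon (RPKM, from the annotation's exon lengths), Ces1c was the most abundant of the 10 in controls, at 337 ± 32.0 RPKM (SD, n = 4). Ces1b (122 ± 9.13) and Ces1d (122 ± 13.0) did not differ beyond their spread, and Ces3a followed at 75.9 ± 10.4. Ces2e (37.3 ± 8.01) and Ces2a (33.1 ± 3.85) lay within each other's spread, as did Ces1e (18.3 ± 1.77) and Ces1g (15.8 ± 7.49), before Ces2g (10.7 ± 0.639) and Ces1f (4.98 ± 1.79). In knockouts Ces1c (235 ± 34.2), Ces1b (78.5 ± 12.5) and Ces1d (72.2 ± 2.89) kept the first 3 places. Ces2e (28.2 ± 3.50) and Ces2a (16.4 ± 2.78) stood above Ces3a (8.91 ± 8.74) and Ces1e (7.23 ± 1.46), and Ces2g (2.39 ± 0.524), Ces1g (1.39 ± 0.332) and Ces1f (0.651 ± 0.184) came last. Of the summed RPKM of the 10, Ces1 genes made up 79.8% ± 1.64 in controls and 87.6% ± 0.875 in knockouts, Ces2 genes 10.4% ± 0.689 and 10.5% ± 0.948, and Ces3a 9.82% ± 1.60 and 1.86% ± 1.62. Ces1c alone was 43.3% of the control and 52.0% of the knockout sum.

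**Figure D4:**
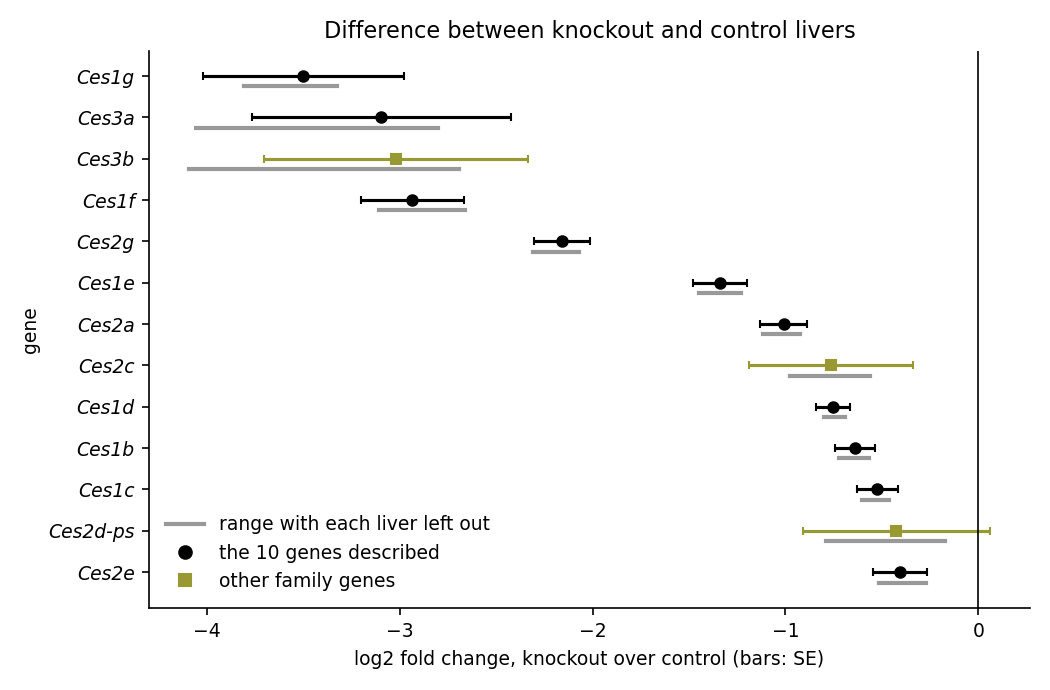
Log2 fold change of knockout over control with SE for the 10 genes (circles) and the 3 other family genes tested (squares); grey lines span the values with each liver left out. Values run from -3.50 for Ces1g to -0.40 for Ces2e, and Ces3a and Ces3b have the longest grey lines.

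Of the 10 family genes outside the set, 3 were tested. Ces3b, which encodes a liver esterase beside Ces3a, was 4.53, 3.71, 1.79 and 18.0 CPM in knockouts 275 to 278 and 66.6, 53.4, 55.3 and 51.0 CPM in controls (-3.02, SE 0.69, adjusted p = 0.0256 in edgeR; 4 of 4 knockouts below every control). Knockout 278 was again the highest of its group. It missed the threshold when knockout 275 (-2.86), knockout 276 (-2.82) or one of the controls was left out, with control 279 giving -2.93, 280 giving -3.05, 281 giving -3.03 and 282 giving -3.07, and it turned to 0.44 (SE 0.97) with the erythroid covariate. Because Ces3a and Ces3b share sequence, their values are not independent. Ces2c, of whose 100-base stretches 16.0% occur elsewhere, mostly in Ces2d-ps, was 1.06 ± 0.371 against 1.81 ± 0.486 CPM (-0.76, SE 0.43, adjusted p = 0.233), and the pseudogene Ces2d-ps was 1.02 ± 0.568 against 1.38 ± 0.292 CPM (-0.42, SE 0.48, adjusted p = 0.597). The others, Ces1a, Ces1h, Ces2b, Ces2f, Ces4a and Ces5a, had at most 16 counts in any library, and Ces2h had 0 in all 8, which allows up to 0.211 CPM in the shallowest. The 2 expressed Ces3 genes thus differed by similar amounts, whereas within Ces2 the expressed genes spread from -2.16 to -0.40.

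Position along the chromosome gives a further view of the 10 genes. In the first cluster the log2 fold changes, in order of position, were -0.64 for Ces1b, -0.52 for Ces1c, -0.75 for Ces1d, -1.34 for Ces1e, -2.94 for Ces1f and -3.50 for Ces1g. In the second cluster they were -1.01 for Ces2a, -0.40 for Ces2e, -2.16 for Ces2g and -3.10 for Ces3a. This order was noticed after the values were seen and was given no test. The genes flanking the clusters, which played no part in choosing the 10, were tested. Over all genes tested, 11.4% were lower and 9.27% higher at an adjusted p under 0.05 in edgeR. Among 12 nearest tested protein-coding genes, 3 on each side of each cluster, 1 rose and none fell at that threshold (1, Car7, fell without control 280). With so few genes these counts cannot be told apart from those shares. At an unadjusted p under 0.05, 2 of the 12 were higher and 1 was lower in edgeR and in DESeq2. In limma-voom 2 were higher and 3 lower, and both other tools called 0 lower after adjustment. Car7, a carbonic anhydrase gene beside the second cluster, was 0.773 ± 0.473 against 1.91 ± 0.785 CPM (-1.29, SE 0.53, adjusted p = 0.101), with overlapping groups. Cbfb, a partner of RUNX transcription factors, was 31.0 ± 2.56 against 22.8 ± 1.58 CPM (0.44, SE 0.11, adjusted p = 0.00959, groups apart). Lpcat2 (0.38, SE 0.20) and Gnao1 (-0.10, SE 0.35), next to the first cluster, did not pass. Ciao2b (0.01, SE 0.21), next to the second, did not pass either.

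**Figure D5:**
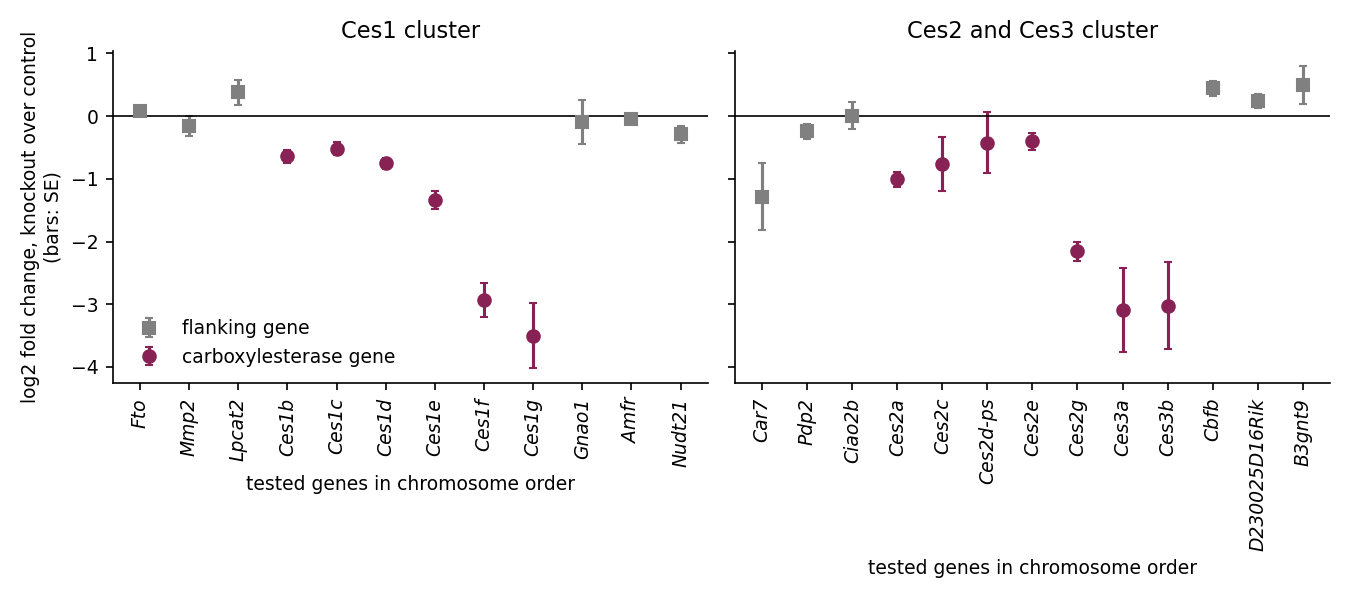
Log2 fold change of knockout over control with SE for tested carboxylesterase genes (circles) and the nearest 3 tested flanking genes on each side (squares), in chromosome order. Of the first cluster's genes shown, Ces1g (-3.50) and Ces1f (-2.94) lie nearest to Gnao1 (-0.10), with the untested Ces1h and Ces5a in between. In the second cluster Ces3a (-3.10) lies towards Cbfb (0.44).

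Promoter windows were available from RefSeq (GRCm38.p6; 250 bases before to 50 after the start site) for 7 of the 10 genes, in 8 windows. They were searched on both strands for 6 motifs. TTATGTAA, a form of the D-box bound by PAR bZIP factors and resembling C/EBP sites, was found in windows of Ces1b, Ces1c, Ces1e and Ces1g, that is in all 4 Ces1 genes with a window and in none of the 3 Ces2 genes, and in 0.938% of 32851 windows overall. That motif was added after the letters of some of these windows had been seen. The windows of Ces1b and Ces1c are 93.4% and 95.4% identical, so they are not separate instances. The Ces1 genes arose by tandem duplication, so the matches in Ces1e and Ces1g cannot be counted as independent either. Whether the motif bears on the differences between genotypes was not tested. The windows of Ces1c, Ces1e and Ces1g are shown with motif matches in capitals, in the direction of transcription.
Ces1c, chr8:93131234-93131533, minus strand: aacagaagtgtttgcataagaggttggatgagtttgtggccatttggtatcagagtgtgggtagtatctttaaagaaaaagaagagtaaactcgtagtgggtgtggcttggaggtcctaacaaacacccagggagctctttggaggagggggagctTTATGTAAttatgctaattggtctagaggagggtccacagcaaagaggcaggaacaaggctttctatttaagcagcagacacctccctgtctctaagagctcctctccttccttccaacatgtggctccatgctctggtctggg
Ces1e, chr8:93229570-93229869, minus strand: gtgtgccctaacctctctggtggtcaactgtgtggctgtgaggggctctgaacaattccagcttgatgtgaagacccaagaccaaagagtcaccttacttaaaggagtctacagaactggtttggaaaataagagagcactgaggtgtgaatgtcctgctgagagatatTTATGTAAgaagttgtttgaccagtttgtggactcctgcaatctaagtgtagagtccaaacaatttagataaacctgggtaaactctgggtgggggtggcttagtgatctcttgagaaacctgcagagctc
Ces1g, chr8:93337160-93337459, minus strand: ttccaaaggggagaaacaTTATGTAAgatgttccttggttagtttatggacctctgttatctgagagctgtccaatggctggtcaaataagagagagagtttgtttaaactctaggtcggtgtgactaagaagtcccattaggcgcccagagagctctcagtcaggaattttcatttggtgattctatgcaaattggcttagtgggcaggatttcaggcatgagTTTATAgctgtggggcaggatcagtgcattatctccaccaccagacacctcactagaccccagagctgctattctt
The TTATGTAA match begins 94 bases before the start site in Ces1c, 81 in Ces1e and 232 in Ces1g. The reverse complement of TATAAA, the TATA box, begins 26 bases before that of Ces1g and was in no other window of the 10, against 13.6% of all windows. AGGTCA, a half-site of nuclear receptors, occurred in Ces2a alone (16.3% of all windows). TTCNNNGAA, a STAT site (8.30% of windows), TGACNNNGC, the core of the antioxidant response element (12.4%), and CAAAGTCC, an HNF4 site core (1.42%), occurred in none. A match is a description of the letters only.

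Other enzymes of neutral lipid hydrolysis went both ways. Of 15 lipases and cofactors, 5 fell and 2 rose, with a median of 0.06. Over all genes tested 11.4% fell and 9.27% rose, with a median of 0.01, and these values also stand beside the lists below. This list and those below were chosen with earlier results of these data known. Their counts are therefore a description and not independent tests. Abhd2 fell from 1529 ± 84.1 to 896 ± 49.3 CPM (-0.77, SE 0.08, adjusted p = 5.49e-06), and the hepatic lipase gene Lipc fell from 301 ± 23.3 to 205 ± 20.8 CPM (-0.55, SE 0.09, adjusted p = 2.83e-04). Pnpla2, the adipose triglyceride lipase, rose from 38.4 ± 3.97 to 57.1 ± 6.18 CPM (0.57, SE 0.11, adjusted p = 9.26e-04). In these 3 genes the groups did not overlap. Of the 15 lipases and cofactors, only 1 rose instead of 2 when knockout 276 or 277 or control 279 or 281 was left out.

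Of 18 other esterases and hydrolases, 4 fell and 1 rose, with a median of -0.19. Bphl, a hydrolase that activates valacyclovir, fell from 50.3 ± 0.726 to 24.9 ± 3.36 CPM (-1.01, SE 0.11, adjusted p = 7.40e-06). Aadac, the arylacetamide deacetylase of the endoplasmic reticulum, fell from 134 ± 13.7 to 75.9 ± 9.62 CPM (-0.82, SE 0.10, adjusted p = 2.08e-05). Nceh1, a neutral cholesteryl ester hydrolase, rose from 38.4 ± 4.09 to 65.8 ± 6.88 CPM (0.78, SE 0.10, adjusted p = 5.12e-05). Of the 18 genes, 3 rose with knockout 278 left out, 2 with control 280 left out, and 2 or 3 under 6 alternative settings.

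Receptors and factors known to regulate carboxylesterases were also measured. Nr1i2 (PXR) was 70.8 ± 8.92 against 64.2 ± 3.93 CPM (0.14, SE 0.10, adjusted p = 0.353), Nr1i3 (CAR) 26.2 ± 4.14 against 21.1 ± 2.01 CPM (0.32, SE 0.13, adjusted p = 0.112) and Nfe2l2 (NRF2) 53.4 ± 4.78 against 56.5 ± 4.38 CPM (-0.08, SE 0.10, adjusted p = 0.617). Nr1i3 passed without knockout 278 (0.42). Of 14 receptors and factors, 3 fell and 2 rose. Ahr (-0.39, SE 0.11, adjusted p = 0.0215) and Ppara (-0.25, SE 0.08, adjusted p = 0.0283) fell and Keap1 (0.35, SE 0.11, adjusted p = 0.0258) rose. These calls rested on few livers. Those that fell numbered 0 without knockout 275, 1 without knockout 276 or any single control, and 2 without knockout 277 or 278, and those that rose 0 without knockout 276 or 277 or control 279 or 282, 1 without knockout 275 or control 280 or 281, and 3 without knockout 278.

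Of 9 NRF2 targets tested, 2 fell and 2 rose, with a median of 0.12. Gclm, a subunit of the enzyme that makes the glutathione precursor, fell (-0.81, SE 0.09, adjusted p = 5.54e-06), and the heme oxygenase gene Hmox1 (0.72, SE 0.08, adjusted p = 1.27e-05) and Osgin1 (0.82, SE 0.13, adjusted p = 5.03e-04) rose. Leaving out knockout 278 gave 3 that rose, and leaving out knockout 276 or control 281 gave 3 that fell. Of 9 PXR and CAR targets tested, 3 fell and 1 rose, with a median of -0.30. Aldh1a1, a retinaldehyde dehydrogenase, fell from 14.1 ± 3.44 to 2.66 ± 0.537 CPM (-2.40, SE 0.22, adjusted p = 1.96e-06). Cyp2b10 fell from 1.84 ± 0.512 to 0.173 ± 0.0566 CPM (-3.34, SE 0.54, adjusted p = 2.81e-04) and Cyp3a11 from 699 ± 95.4 to 325 ± 102 CPM (-1.11, SE 0.21, adjusted p = 0.00663). Cyp2c29 rose (1.62, SE 0.44, adjusted p = 0.0161), with overlapping groups, but not when knockout 275 or control 280, 281 or 282 was left out. Leaving out knockout 278 or control 281 or 282 gave 4 that fell.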

How the data were processed

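RNA from whole livers of 4 knockout and 4 control pups was sequenced, 1 library per animal, so p-values measure the spread between animals. The deposited file holds raw gene counts. The authors aligned reads with Rsubread 2.20.0 in R 4.4.1, per the labels' protocols, and the submitters' processing notes list featureCounts. The labels' GRMm38 was taken to mean GRCm38. Annotation and strand settings: not given in the sources used here.

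IDs were matched to GENCODE M21 (48058 of 48440). Testing used edgeR 4.0.16 (R 4.3.3, limma 3.58.1) with filterByExpr (minimum count 10, minimum total 15), TMM and the robust quasi-likelihood F-test, adjusted by Benjamini-Hochberg at 0.05, and was checked on simulated data. RPKM are CPM per kilobase of merged exons. Age, sex and litter are not in the fit.

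The 10 genes and all lists were chosen with earlier results of these data known. Named are the 10 genes, other family genes averaging at least 1 CPM, 3 genes per list by smallest p, Gusb, Nr1i2, Nr1i3, Nfe2l2, called flanking genes and Myo5b. Other names were chosen after their values were seen. Alternatives comprised 3 other scalings (median-ratio, upper-quartile, library size alone), no low-count filter, at least 1 CPM in 4 libraries, DESeq2 1.42.0, limma-voom with quality weights, an erythroid covariate, omission of the 10 genes above 1% of counts, and leaving out each library. Coding sequences were aligned with Biopython 1.88.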

Additional observations from a re-analysis of the deposited data

Results flagged for a closer look

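Ces3a in knockout 278, at 57.5 CPM, stood apart from the other 3 knockouts (7.58 to 15.5 CPM), with a gap of 0.842 of the group's range. Ces3b in the same liver, at 18.0 CPM, did so too (gap 0.832). Ces2a in control 281, at 64.5 CPM, lay below the other 3 controls (81.5 to 83.8 CPM; gap 0.878). Each gap exceeds Dixon's critical value for 4 samples, and chance alone flags about 1 in 20 groups, of which 68 were examined, so 3 flags are no more than chance gives. Ces3a and Ces3b share sequence, so their flags are not separate. The cause was not tested.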

How the results depend on the processing

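The erythroid covariate changed most. With it, 23 genes were higher and 18 lower over all genes, and 0 of the 10 carboxylesterases, 0 other family genes and 0 flanking genes passed in edgeR. In the lists, 0 genes rose in any of the 5, and 0 fell among lipases, other esterases, receptors and NRF2 targets and 1 among PXR and CAR targets. Ces3a turned to 0.19, Ces3b to 0.44, Ahr to 0.063, Keap1 to -0.0682, Gusb to -0.28, Nr1i3 to -0.20 and Nfe2l2 to 0.19. The covariate has 14 genes and correlates with genotype at -0.944.

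Other settings changed only small counts among those compared. Of the other esterases, 2 rose with upper-quartile scaling or at least 1 CPM in 4 libraries, and 3 with library size alone, no low-count filter, DESeq2 or limma-voom. Of the receptors, 1 fell with upper-quartile scaling and with library size alone. Of the PXR and CAR targets, 5 fell with no low-count filter and 0 rose in limma-voom. Library size alone gave 2300 higher and 1696 lower genes, moving the share of higher calls from 44.8% to 57.6%. No low-count filter moved the median of all genes from 0.01 to -0.11. Of 170 refits of single members, 153 kept direction and side of the threshold and 1 changed sign.

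With each library left out, higher genes numbered 1223 to 1762 and lower genes 1699 to 2167, and 8 to 10 of the 10 carboxylesterases were lower and 0 higher. Other family genes that fell were 0 to 2, and flanking genes 0 to 1. Rising and falling genes were 1 to 2 and 5 of the lipases, 1 to 3 and 4 of the other esterases, 0 to 3 and 0 to 2 of the receptors, 2 to 3 and 2 to 3 of the NRF2 targets, and 0 to 1 and 3 to 4 of the PXR and CAR targets. The summed log2 ratio was -0.72 to -0.61 for Ces1, -0.87 to -0.74 for Ces2 and -4.05 to -2.80 for Ces3, whose -4.05 came without knockout 278. No paired analysis was possible because the litter of each pup is not given.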
